A study of Mus musculus with 6 samples.

Results

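Cells hold on to their surroundings and to each other through integrins, laminins, cadherins, protocadherins, claudins and cell-surface heparan sulfate proteoglycans, and they read positional cues through semaphorins, ephrins, Slits and netrins. The genes of these families described here were 53 entries of the authors' deposited comparison of perigonadal with subcutaneous adipose stromal cells, out of 3541 entries of that table with array values and 23531 probe sets in all. They were chosen by the first letters of the gene symbol (Itga, Itgb, Lama, Lamb, Lamc, Cdh, Pcdh, Cldn, Gpc, Sdc, Sema, Plxn, Epha, Ephb, Efna, Efnb, Slit, Robo, Ntn and Unc5), with Nrcam and Dchs2 added by name. The 53 entries carried 50 symbols, since Cldn10, Pcdh9 and Sema6b had 2 probe sets each. Of these symbols, 3 belong to proteins outside the families that share only the letters: Gpcpd1, a glycerophosphocholine phosphodiesterase, Itgb3bp, a centromere protein first found through integrin binding, and Sdcbp, the adaptor syntenin. They are counted but set apart, which leaves 50 probe sets of 47 family genes.

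The cells were adipose stromal cells of male mice, the fibroblast-like progenitors of fat, taken freshly from subcutaneous or from perigonadal fat (the visceral depot beside the gonads) and never cultured. Both groups had been sorted magnetically from the digested tissue as CD45- CD31- Sca1+ cells, which leaves out leukocytes and endothelial cells by their surface proteins, and neither group had received a treatment. Each of the 6 Affymetrix arrays held RNA of cells pooled from several animals, 3 pools per depot. The labels name neither strain nor age. They do not say whether pools with the same number came from the same animals, so what a pairing of pools across depots stands for is not known. The spread between pools of a depot may be partly technical.

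The table holds only genes that the authors' own paired test of the depots had selected at an unadjusted p below 0.05. Every difference between depots given below is therefore part of what chose the gene and is a description. Among the 53 members the p in the authors' deposited table ran from 0.00018 for Gpc3 to 0.048 for Pcdh12, and the members nearest to the threshold were Efnb2 (0.0477) and Pcdh12. Genes just beyond the threshold have no name here. A gene of these families that is absent from the table may have differed less, varied more, or lacked a probe set, and nothing is said of it.

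In background terms, integrins are paired chains that bind matrix proteins such as fibronectin, collagen and laminin, and laminins are three-chain proteins that form the core sheet of basement membranes. Cadherins and protocadherins join like cells, and claudins set what passes between cells at tight junctions. Semaphorins, ephrins, Slits and netrins were first known for steering axons through plexin, Eph, Robo and Dcc or Unc5 receptors, and they also act in vessels, mesenchyme and other tissues outside the nervous system.

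Of the members higher in perigonadal pools, Slit2, Dchs2 and Itga5 differed most, and of those higher in subcutaneous pools, Pcdh20, Cdh9 and Cldn10 differed most. The RefSeq sequence around the transcription start is shown for the members at both ends of the range, Slit2 and Pcdh20, and for Cldn10, because this gene has 2 annotated starts and 2 probe sets. Each window runs from 250 bases before to 50 bases after the start in GRCm38.p6, is written 5′ to 3′ on the gene's strand, and has every CG dinucleotide in capitals.
Slit2, chr5:47982905-47983204, plus strand: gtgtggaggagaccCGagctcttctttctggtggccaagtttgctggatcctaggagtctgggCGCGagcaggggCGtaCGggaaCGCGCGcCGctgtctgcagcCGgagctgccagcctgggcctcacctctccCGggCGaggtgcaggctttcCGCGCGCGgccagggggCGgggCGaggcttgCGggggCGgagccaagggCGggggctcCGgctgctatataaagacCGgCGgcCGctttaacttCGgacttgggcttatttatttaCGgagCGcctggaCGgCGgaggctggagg
Pcdh20, chr14:88471347-88471646, minus strand: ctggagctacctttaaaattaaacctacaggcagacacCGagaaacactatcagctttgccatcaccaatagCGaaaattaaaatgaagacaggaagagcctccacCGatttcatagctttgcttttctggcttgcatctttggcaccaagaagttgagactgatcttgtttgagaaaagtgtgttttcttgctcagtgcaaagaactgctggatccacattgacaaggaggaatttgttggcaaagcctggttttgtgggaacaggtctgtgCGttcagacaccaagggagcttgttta
Cldn10, first start, chr14:118787621-118787920, plus strand: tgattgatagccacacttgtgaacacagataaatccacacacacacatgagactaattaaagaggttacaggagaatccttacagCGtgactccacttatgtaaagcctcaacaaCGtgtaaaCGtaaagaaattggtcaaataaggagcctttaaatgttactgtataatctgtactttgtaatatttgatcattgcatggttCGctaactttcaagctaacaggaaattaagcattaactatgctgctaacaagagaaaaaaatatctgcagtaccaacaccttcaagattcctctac
Cldn10, second start, chr14:118854700-118854999, plus strand: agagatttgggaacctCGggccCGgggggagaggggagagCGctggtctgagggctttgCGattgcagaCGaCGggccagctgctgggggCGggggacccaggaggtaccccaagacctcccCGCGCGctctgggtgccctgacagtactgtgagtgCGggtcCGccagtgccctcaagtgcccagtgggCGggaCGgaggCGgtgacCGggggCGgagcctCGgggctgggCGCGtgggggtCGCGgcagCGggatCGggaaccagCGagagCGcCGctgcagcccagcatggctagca

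The Slit2 window held 30 CG dinucleotides, a number reached by 11.7% of 32851 RefSeq start windows, and the Pcdh20 window held 4, as many as or more than 38.0% of windows. The starts of Cldn10 differed in the same way, with 4 at the first and 27 at the second. The GC box GGGCGG, searched on both strands, occurred 3 times at Slit2 and 3 times at the second Cldn10 start, and these letters were not in the Pcdh20 window or at the first Cldn10 start. Of the 50 symbols, which include the 3 set apart above (all 3 higher in perigonadal pools), 38 matched this table, with 45 windows. A GC box was in 26 of those 45 (57.8%), against 46.2% of 21263 windows of protein-coding genes. The median number of CG dinucleotides was 18 in the windows of the members and 13 in those of protein-coding genes. Over all 32851 windows, the base of the percentages given for Slit2 and Pcdh20, it was 7. These include windows of genes that code for no protein. Among the members the median was 22.5 in 18 windows of genes higher in perigonadal pools and 14 in 27 windows of genes higher in subcutaneous pools. These counts describe letters and were not tied to any binding data.

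The arrays were alike in scale. Their median normalized intensity lay between 6.44 and 6.96, and log2 intensities correlated at 0.991 to 0.994 (Pearson, across probe sets) between pools of the same depot and at 0.978 to 0.981 between depots. Of the sort markers, only Ly6a (Sca1) had a name here, at 509.9 to 620.0 in subcutaneous and 435 to 523 in perigonadal pools. Markers of other cells also differed. Of 17 mesothelial markers 9 had a name, and all 9 were called higher in perigonadal pools. Their summed intensity was 51.1 to 63.9 in subcutaneous and 329.5 to 368 in perigonadal pools. In every subcutaneous pool Wt1, Upk3b, Krt7, Krt18, Gpm6a and Aldh1a2 were below the array median. Rspo1 and Krt19 were above it in every subcutaneous pool, and Krt8 was above it in some. Most of the perigonadal sum came from Wt1 (means of 4.18 and 141) and Rspo1 (15.97 and 96.3). The other named mesothelial markers had perigonadal means from 7.85 (Gpm6a) to 26.2 (Krt8). Of 12 pericyte and smooth muscle markers 6 had a name, 4 higher and 2 lower, with sums of 62.3 to 88.0 and 111 to 146. Des (mean 8.78 in subcutaneous and 54.9 in perigonadal pools), Acta2 (12.3 and 36.4), Myh11 and Tagln were higher. Abcc9 (32.1 and 6.80) and Kcnj8 (7.20 and 3.32) were lower, so the sums do not give the direction of each gene. Of 12 Schwann cell markers 3 had a name, with sums of 258 to 285 and 265 to 314. Most of both sums came from the sodium channel gene Scn7a (means of 233 and 278), which was not called. The myelin gene Mbp (18.3 and 7.03) and the glial gene S100b (21.4 and 7.21) were called lower in perigonadal pools. Of 14 endothelial markers 3 had a name (Tek lower, Eng and Lyve1 higher), with sums of 165 to 180 and 139 to 143. Most of both sums came from Tek (means of 130 and 76.5). The only named leukocyte marker of 12, Fcer1g, was at 2.95 to 3.77 and 5.47 to 7.08. None of the 11 adipocyte and 9 epithelial markers had a name. The 7 named stromal markers of 11 were all lower in perigonadal pools, with sums of 3784 to 3997 and 2007 to 2218. What part any of these cells had in the differences below was not tested. In pooled RNA, fewer cells of a type and less RNA per cell cannot be told apart.

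Intensities are given per pool in the order of pool numbers 1 to 3, subcutaneous first. A difference is the perigonadal level minus the subcutaneous one, both as log2(intensity + 1), with the standard error of a limma fit over all 23531 probe sets that keeps the pool number as a block. Adding 1 shrinks the differences of dim probe sets. A probe set counts as called where its adjusted p (Benjamini-Hochberg over all probe sets) was below 0.05. In that fit 41 of the 53 members were called, 15 higher and 26 lower in perigonadal pools, and without pool pair 1 the counts were 5 and 17 (529 and 660 over all probe sets, from 952 and 1286). Of all probe sets 9.51% were called (4.05% higher, 5.47% lower), and of the 3541 probe sets that the authors had selected 51.7% were called (22.1% higher, 29.6% lower). Nothing is read from the members' count, since the contrast chose them. A called difference of at least 2-fold was found for 3 members in the perigonadal and 9 in the subcutaneous direction, 12 of 53, against 2.19% of all probe sets and 14.2% of the table. The median difference was -0.27 over the members, -0.13 over the table and -0.01 over all probe sets.

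**Figure D1:**
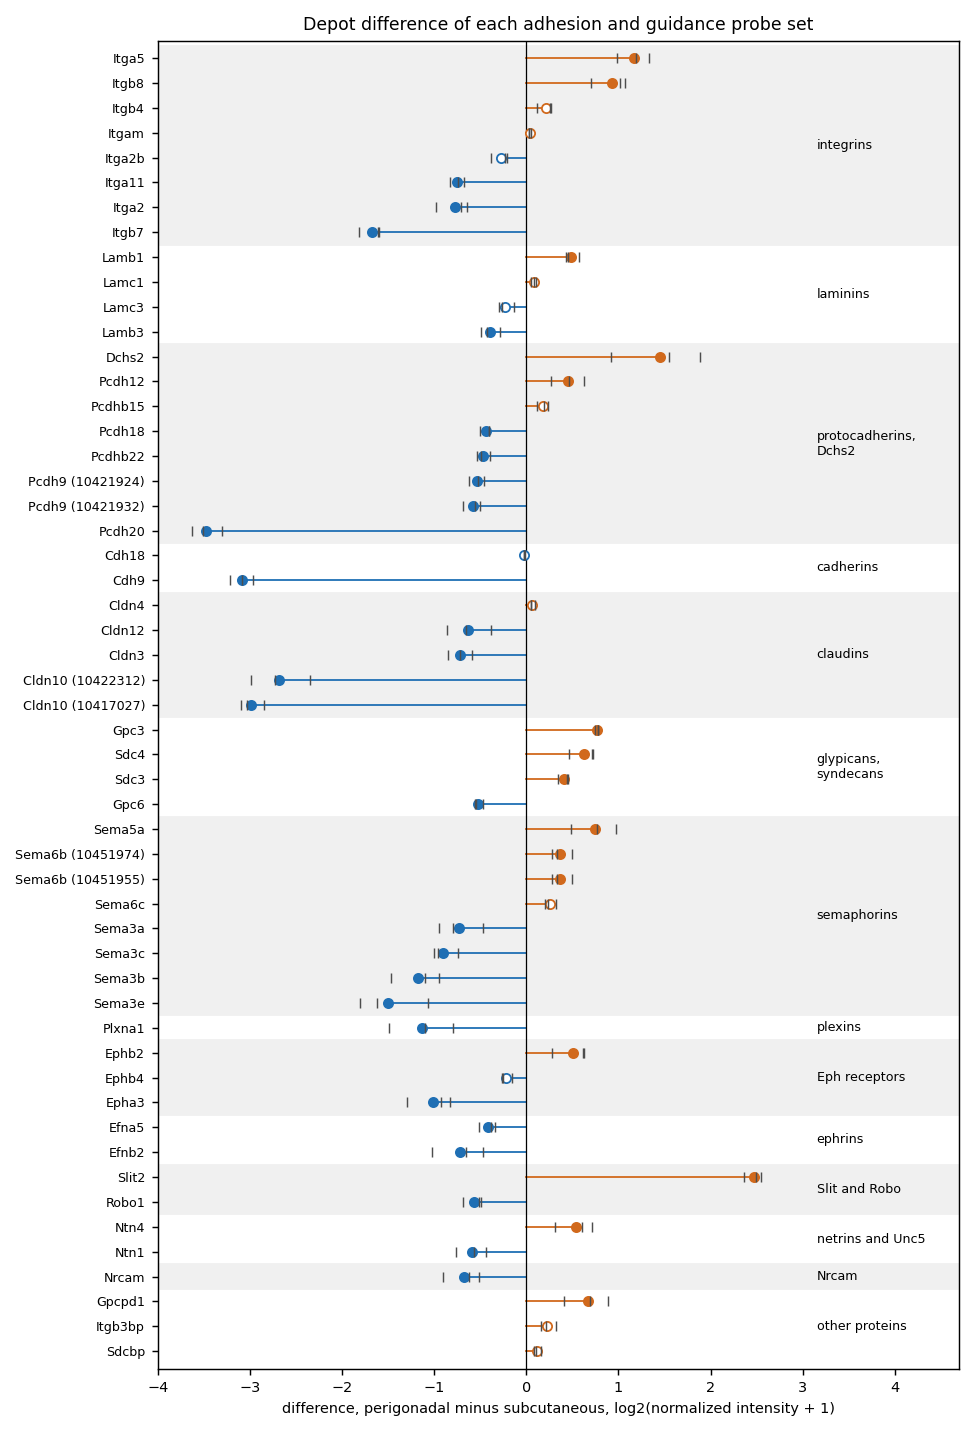
Depot difference of each of the 53 probe sets, grouped by family. The horizontal axis is the perigonadal minus the subcutaneous level, both as log2(normalized intensity + 1). Circles are the fitted differences (filled where called at an adjusted p below 0.05), ticks are the differences of the 3 same-numbered pool pairs. Slit2 lies at 2.47 and Pcdh20 at -3.48, and in every probe set shown the 3 pairs lie on the same side of 0.

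Among the integrin chains in the table, the fibronectin-binding chain Itga5 was higher in perigonadal cells. The collagen-binding chains Itga2 and Itga11 were higher in subcutaneous cells. Of 27 integrin genes in RefSeq 8 were in the table, 4 higher and 4 lower, with 2 and 3 of them called. Itga5 (probe set 10433114, chromosome 15, band F3), which pairs with the beta1 chain, had intensities of 48.1, 65.4 and 59.3 in subcutaneous pools and of 123, 151 and 119 in perigonadal pools. Every perigonadal pool was above every subcutaneous pool, and the difference was 1.17 ± 0.099 (SE, n = 3 pairs here and below). Itgb7, a chain best known from lymphocytes that home to the gut (10432957, chromosome 15, band F3), was at 13.2, 12.5 and 17.3 in subcutaneous and at 3.69, 3.45 and 4.20 in perigonadal pools, a difference of -1.67 ± 0.092. Its subcutaneous levels were above the array medians in all 3 pools and its perigonadal levels below them in all 3.

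Itgb8, which with alpha-v activates latent TGF-beta, had the reverse pattern. It was below the array medians in the subcutaneous pools (4.10 ± 0.35, mean ± SD, n = 3) and above them in the perigonadal pools (8.76 ± 1.36), with a difference of 0.93. Of the collagen receptors in the table, Itga11 was at 123 ± 4.17 and 73.0 ± 4.73 and Itga2 at 14.3 ± 1.51 and 8.03 ± 1.65, with differences of -0.75 and -0.77. The other chains were not called. Itgb4, the hemidesmosome chain, was at 5.34 ± 0.304 and 6.35 ± 0.518, and Itga2b, the platelet chain, at 6.31 ± 0.476 and 5.04 ± 0.0404. Itgam, the myeloid chain CD11b, was at 2.38 ± 0.095 and 2.47 ± 0.0656, and its pools overlapped between depots.

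Of 11 laminin genes 4 were in the table, with Lamb1 called higher and Lamb3 called lower in perigonadal pools. Lamb1, a beta chain of most basement membranes (10395163, chromosome 12), was at 175, 186 and 191 in subcutaneous and at 261, 256 and 258 in perigonadal pools. The depots did not overlap, and the difference was 0.49 ± 0.087. Lamc1, the common gamma chain, lay between 528 and 619 in all pools, and the depots overlapped, with a difference of 0.08 that was not called. Lamb3, a chain of the laminin that anchors epidermis, was at 6.98 ± 0.7 and 5.04 ± 0.226, a called difference of -0.40. Lamc3 was at 12.3 ± 2.01 and 10.2 ± 1.1, a difference of -0.23 that was not called.

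Among cadherins and protocadherins, Pcdh20 and Cdh9 were far higher in subcutaneous pools and Dchs2 was higher in perigonadal pools. Pcdh20, a protocadherin outside the genomic clusters (10421911, chromosome 14, band E1), was at 40.3, 49.8 and 41.6 in subcutaneous and at 2.33, 3.47 and 3.33 in perigonadal pools, a difference of -3.48 ± 0.098. Cdh9, a type II classical cadherin that acts at synapses (10423230, chromosome 15, band A2), was at 25.6, 27.3 and 25.0 and then at 2.14, 2.04 and 2.32, a difference of -3.09 ± 0.092. Both genes were above the array medians in all subcutaneous pools and below them in all perigonadal pools. Dchs2, a very large relative of the fly polarity cadherin dachsous (10492774, chromosome 3, band E3), ran the other way. It was at 4.43, 4.68 and 6.72 in subcutaneous and at 19.0, 15.7 and 13.6 in perigonadal pools. The depots did not overlap, but the difference varied between pool pairs, from 1.88 in pair 1 to 0.92 in pair 3, around 1.45 ± 0.17.

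The remaining protocadherins differed by less than a log2 value of 1. The probe sets of Pcdh9 were at 8.31 ± 0.229 and 5.23 ± 0.549 and at 6.86 ± 0.194 and 4.43 ± 0.208, with differences of -0.58 and -0.53. Pcdh18 was at 66.2 ± 2.12 and 48.7 ± 2.65, a difference of -0.44. Pcdh12, which is known from endothelium, was at 4.58 ± 0.397 and 6.70 ± 1.19, a difference of 0.45. From the beta cluster, Pcdhb22 had a difference of -0.47 and Pcdhb15 one of 0.18 with overlapping depots. Because cluster members resemble each other in sequence, signal may be shared between them. Counted together, 7 of 70 protocadherin and Dchs2 genes were in the table, with 2 probe sets called higher and 5 lower. Of 23 cadherins 2 were present. The second, Cdh18, was at 3.35 ± 0.211 and 3.29 ± 0.211, below the array medians everywhere, with a difference of -0.02.

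Of 33 claudin genes 4 were in the table, and 3 of these were called higher in subcutaneous pools (Cldn10 with both of its probe sets). Cldn10 forms ion-selective pores between epithelial cells and is made in 2 main forms from alternative first exons. Its probe set 10417027 (chromosome 14, band E4) was at 42.7, 37.2 and 46.2 in subcutaneous and at 4.11, 3.66 and 5.56 in perigonadal pools, a difference of -2.99 ± 0.093. The probe set 10422312 was at 35.2, 30.4 and 29.5 and then at 3.55, 3.74 and 5.00, a difference of -2.69 ± 0.13. Both probe sets thus had the same order of depots with a wide gap, and the table lists them under different transcripts. Which of the starts shown above each one reads was not worked out. The barrier claudin Cldn3 was at 8.54 ± 1.23 and 4.79 ± 0.508 and Cldn12 at 43.8 ± 2.98 and 28.0 ± 3.4, with differences of -0.72 and -0.63. Cldn4 was at 4.03 ± 0.487 and 4.27 ± 0.583, with overlapping depots and a difference of 0.07.

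Some members are neighbours on their chromosome. In the RefSeq gene order of GRCm38.p6, Pcdh20 and Pcdh9 have no protein-coding gene between them on chromosome 14, and both were lower in perigonadal pools, by very different amounts (-3.48 against -0.58 and -0.53). Cldn3 and Cldn4 also lie side by side on chromosome 5, with differences of -0.72 and 0.07. Cdh9 and Cdh18 have 3 protein-coding genes between them on chromosome 15, with differences of -3.09 and -0.02.

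**Figure D2:**
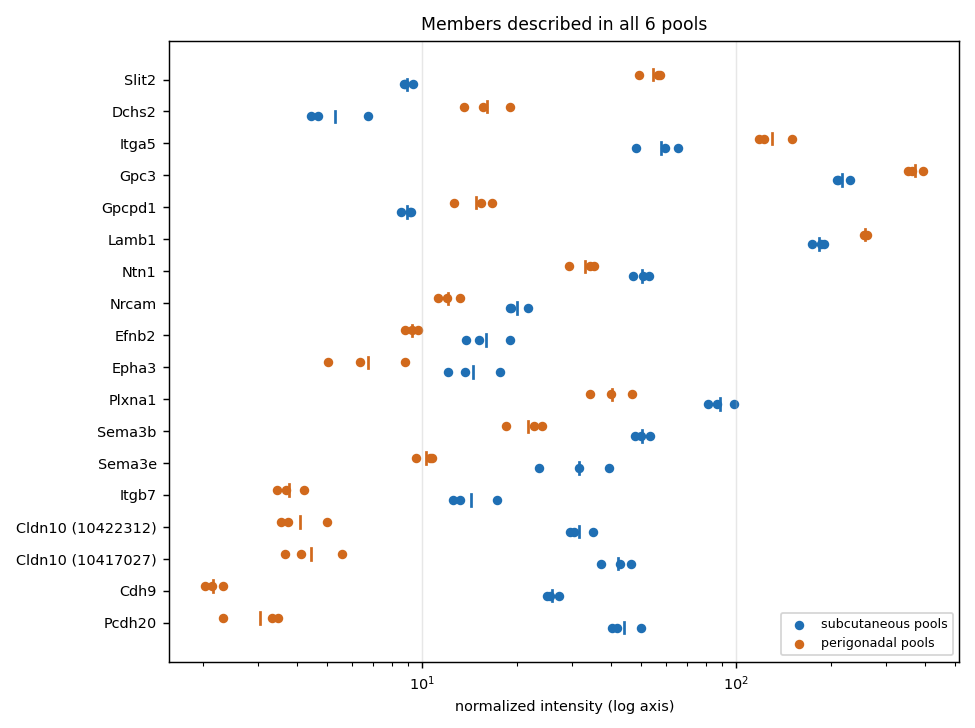
Normalized intensity (log axis) of the 18 probe sets with a difference of at least 1 on the log2 scale or the largest difference of their family. Points are single pools and vertical bars are means of the 3 pools of a depot. The depots are separate in all 18, with Slit2 at 8.76 to 9.34 against 49.1 to 57.4 and Pcdh20 at 40.3 to 49.8 against 2.33 to 3.47.

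Heparan sulfate proteoglycans carry growth factors and guidance cues at the cell surface, and 4 of 10 glypican and syndecan genes were in the table, 3 called higher and 1 lower. Gpc3, a glypican that binds Hedgehog ligands and restrains body growth (10604576, chromosome X), was at 209, 212 and 230.1 in subcutaneous and at 353, 364 and 395 in perigonadal pools. Its pool pairs differed by nearly the same amount, 0.75, 0.78 and 0.78, and the difference was 0.77 ± 0.084. Gpc6 was at 116 ± 7.85 and 80.3 ± 3.85, a difference of -0.52, so the glypicans went opposite ways. Sdc4, a syndecan of focal adhesions, was at 26.7 ± 1.98 and 41.9 ± 2.29, a difference of 0.63. Sdc3 was at 4.09, 6.08 and 3.97 in subcutaneous and at 5.89, 8.01 and 5.81 in perigonadal pools. Its depots overlapped, with pool 2 high in both, and the difference of 0.41 was the only called one among members with overlapping depots.

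Semaphorins divided by structural class, a grouping made here after the values had been seen. The secreted class 3 genes were higher in subcutaneous pools in 4 of 4 cases, all called, and the membrane-bound class 5 and 6 genes were higher in perigonadal pools in 3 of 3 genes, 2 of them called. Without pool pair 1 both of these latter calls, of Sema5a and Sema6b, were lost, and those of the class 3 genes were kept. The call of Sema6b was also lost without pool pair 2. RefSeq has 7 class 3 genes and 6 of classes 5 and 6, so 3 of each are not in the table, and none of the 6 class 4 genes is. Sema3e, a ligand that can bind Plxnd1 without neuropilin (10519747), was at 31.6, 39.4 and 23.6 in subcutaneous and at 9.58, 10.6 and 10.8 in perigonadal pools, a difference of -1.50 ± 0.14. The subcutaneous pools were widely spread, and the lowest of them was still above every perigonadal pool. Sema3b (10596680) was at 49.7, 53.1 and 47.6 and then at 22.7, 18.6 and 24.1, a difference of -1.17 ± 0.12, with no overlap.

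Sema3c was at 238 ± 21.8 and 127 ± 10.05, a difference of -0.90. Sema3a, the founding growth-cone repellent, was at 11.1 ± 0.936 and 6.28 ± 0.657, a difference of -0.74. Between Sema3a and Sema3e on chromosome 5 lie 3 protein-coding genes. In the other direction, Sema5a was at 15.2 ± 2.26 and 25.997 ± 2.38, a difference of 0.74. Sema6b was at 8.40 ± 0.614 and 11.2 ± 1.67, a difference of 0.37. Its 2 probe sets hold identical values in all 6 pools and are 1 measurement, though the counts of probe sets given here include both. Sema6c was at 7.19 ± 0.134 and 8.79 ± 0.592, with no overlap of depots and a difference of 0.26 that was not called.

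Of 9 plexins, the semaphorin receptors, only Plxna1 was in the table. This plexin, which transduces class 3 signals together with neuropilins (10546184, chromosome 6, band E2), was lower in perigonadal pools, at 81.3, 98.2 and 87.0 against 46.5, 34.3 and 40.0, a difference of -1.13 ± 0.14. The depots were separate, and the pool pairs ranged from -0.79 to -1.49. The neuropilins, which hold class 3 semaphorins for the plexins, are not members but were read from the fixed list of partner genes. Nrp1 was at 95.1 ± 9.03 and 76.6 ± 3.02, which was not called, and Nrp2 at 6.00 ± 1.11 and 12.04 ± 0.117, a called difference of 0.91 in the perigonadal direction.

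Slit2 and its receptor Robo1 differed in opposite directions. Slit2 is a secreted ligand that repels axons and migrating cells (10521759, chromosome 5, band B3), and it was at 9.34, 8.86 and 8.76 in subcutaneous and at 57.4, 56.5 and 49.1 in perigonadal pools. The pools of each depot lay close together, with a wide gap between depots and a difference of 2.47 ± 0.089. Robo1 was at 38.9 ± 3.58 and 25.96 ± 0.732, a difference of -0.56. Of 3 Slit and 4 Robo genes in RefSeq these were the ones in the table. Srgap1, a GTPase-activating protein that acts downstream of Robo, was at 50.5 ± 5.62 and 29.3 ± 3.87, a called difference of -0.77.

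The netrins also split. Ntn1, the founding floor-plate attractant (10387170, chromosome 11, band B3), was at 50.5, 46.9 and 53.0 in subcutaneous and at 29.3, 34.3 and 35.3 in perigonadal pools, a difference of -0.59 ± 0.097 with no overlap. Ntn4, a basement membrane netrin that binds laminin, was at 24.7 ± 3.37 and 36.2 ± 2.78, a difference of 0.54. None of the 4 Unc5 receptor genes was in the table. Neo1, a netrin and RGM receptor on the partner list, was at 107 ± 11.2 and 52.7 ± 5.15, a called difference of -1.004.

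Ephrins and Eph receptors are both bound to the membrane and signal where cells touch. Of 8 ephrins 2 were in the table and both were lower in perigonadal pools. Efnb2, the transmembrane ephrin of arteries (10576911), was at 13.8, 19.1 and 15.2 in subcutaneous and at 9.73, 8.86 and 9.27 in perigonadal pools, a difference of -0.72 ± 0.12. Efna5, which is held by a lipid anchor, was at 21.8 ± 1.64 and 16.1 ± 0.546, a difference of -0.41. Of 14 Eph receptors 3 were present. Epha3, a receptor for A-type ephrins (10440258, chromosome 16), was at 12.1, 13.7 and 17.7 and then at 6.36, 5.02 and 8.80, a difference of -1.02 ± 0.11. Pool 3 was the highest in both depots, and the depots did not overlap.

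The B-type receptors went both ways. Ephb2 was at 11.9 ± 1.21 and 17.5 ± 3.83, a called difference of 0.50, and the lowest perigonadal pool (13.4) was just above the highest subcutaneous pool (13.2). Ephb4, the receptor paired with Efnb2 in vessels, was at 18.6 ± 1.71 and 15.8 ± 2.13, with overlapping depots and a difference of -0.22 that was not called.

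**Figure D3:**
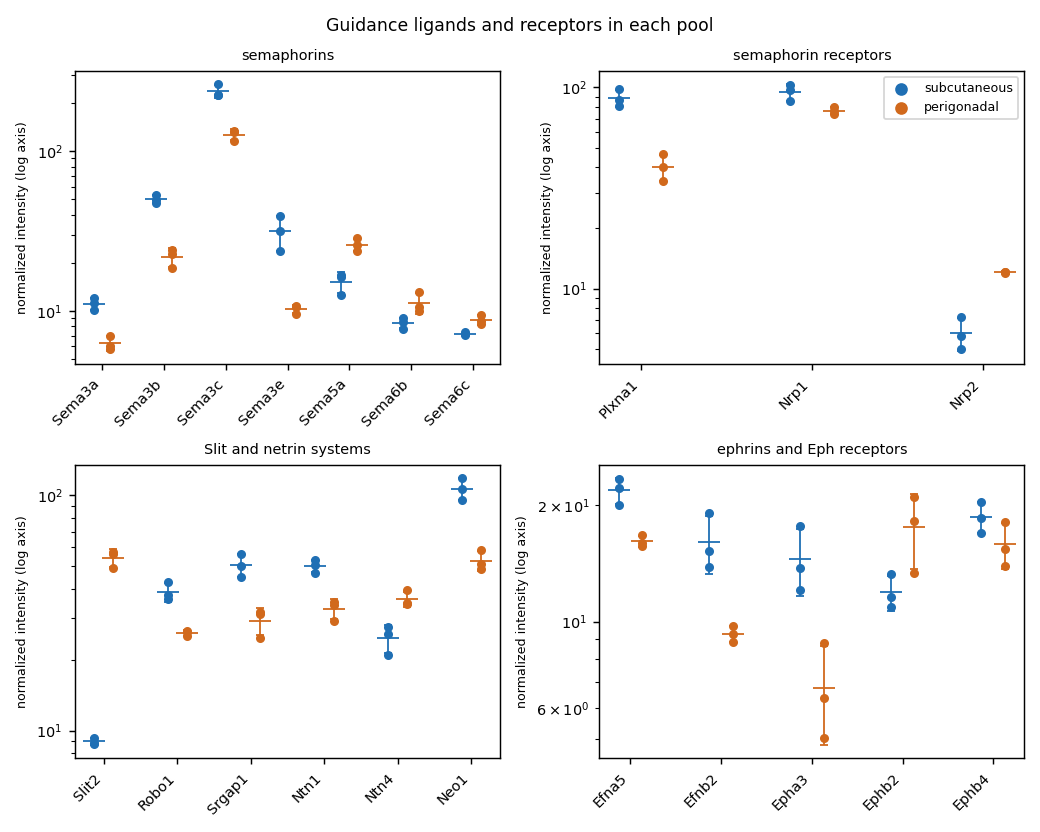
Normalized intensity (log axis) of guidance ligands and receptors in each pool, with the mean and SD of the 3 pools of each depot. Nrp1, Nrp2, Srgap1 and Neo1 come from the list of partner genes. The class 3 semaphorins and Plxna1 lie lower in perigonadal pools, Sema5a, Sema6b, Sema6c, Nrp2, Slit2 and Ntn4 lie higher, and levels are to be compared between depots and not between genes.

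Nrcam, an adhesion protein of the L1 family (10395553, chromosome 12, band B3), was at 19.1, 21.8 and 19.2 in subcutaneous and at 12, 11.2 and 13.2 in perigonadal pools. The depots did not overlap, and the difference was -0.68 ± 0.10. Among the proteins that share only their letters with a family, Gpcpd1 (10487945) was at 9.14, 8.56 and 9.24 in subcutaneous and at 15.4, 16.7 and 12.6 in perigonadal pools, a difference of 0.66 ± 0.11. Itgb3bp and Sdcbp had overlapping depots and differences of 0.23 and 0.12, which were not called.

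Partner genes of these families were counted from 6 lists with 138 entries, chosen with earlier results of these data known. Of these, 42 had a name, again only because the authors' test had selected them, and 12 were called higher, 14 lower and 16 were not called. Their median difference was -0.24. Of all probe sets 9.51% were called, and of those the authors had selected 51.7% were called (22.1% higher, 29.6% lower). Nothing is therefore read from the counts of the partner genes, together or by list. Among 15 named of 34 guidance coreceptors and effectors, 2 were called higher and 6 lower. The GTPase Rnd1, which acts on plexins, was at 14.5 ± 2.92 and 60.4 ± 7.43, a difference of 2.00, while the actin regulator Enah was at 42.4 ± 2.45 and 16.7 ± 1.54, a difference of -1.30. The kinases Fyn and Abl1 had differences of -0.55 and -0.45, and Flrt2, a ligand of Unc5 receptors, one of -0.61.

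Tight junction partners went both ways. Of 18 genes 7 had a name, 3 called higher and 2 lower. The junctional adhesion molecule Jam2 was at 26.8 ± 2.43 and 83.6 ± 7.72, a difference of 1.60, and Jam3 and F11r had differences of 0.83 and 0.62. The scaffold Tjp1 was at 55.1 ± 4.23 and 36.0 ± 3.46, a difference of -0.60, and Cgnl1 had one of -0.38. Among cadherin partners and atypical cadherins 5 of 23 had a name, 1 called higher and 2 lower. Fat4, which binds dachsous cadherins, was at 22.9 ± 2.35 and 9.47 ± 1.24, a difference of -1.19 that was opposite to that of Dchs2. Fat1 had a difference of 0.96 and plakoglobin (Jup) one of -0.67.

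Of 15 basement membrane partners 5 had a name, 2 called higher and 1 lower. Egflam (pikachurin, a dystroglycan ligand) was at 3.94 ± 0.269 and 15.1 ± 1.61, a difference of 1.70, and agrin (Agrn) had one of -0.45. Of 20 integrin adhesion genes 5 had a name, 2 called higher and 1 lower, with differences of 0.84 for Tns3, 0.55 for vinculin (Vcl) and -0.60 for Tns1. Of 28 immunoglobulin-family adhesion genes 5 had a name, 2 called in each direction. Cadm3 was at 189 ± 18.8 and 98.9 ± 3.73, a difference of -0.93, Kirrel had one of -0.61, and Cadm1 and Vcam1 had 0.62 and 0.57.

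The members were unequal in how firmly the pools separated the depots. In 43 of 53 probe sets every pool of a depot lay beyond every pool of the other, against 25.1% of all probe sets and 81.3% of those in the table. The 10 with overlapping depots were Cdh18, Cldn4, Ephb4, Itgam, Itgb3bp, Lamc1, Lamc3, Pcdhb15, Sdc3 and Sdcbp, with differences between -0.23 and 0.41. In all 10 the differences of same-numbered pools varied less (SD 0.00095 to 0.084 on the log2 scale) than the pools within a depot (0.035 to 0.26). Cdh18 shows this most plainly. Its pools were at 3.22, 3.59 and 3.23 and then at 3.16, 3.53 and 3.17, and its p in the authors' deposited table was 0.0041. Over all probe sets the differences of same-numbered pools varied less than the pools within a depot in 29.5%, over the table in 56.1%, and over the members in 26 of 53. The paired test behind the table selects for this, so nothing is read from it.

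**Figure D4:**
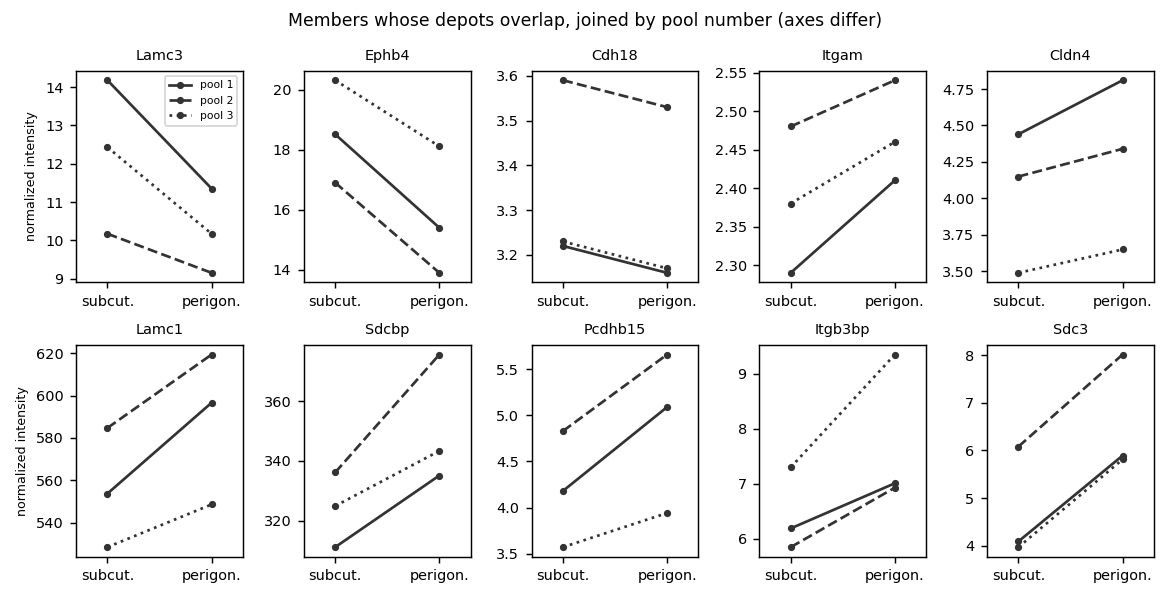
Normalized intensity of the 10 members whose depots overlap, with lines joining pools of the same number (axes differ between panels and do not start at 0). All lines within a panel slope the same way, and those of Cdh18 run nearly side by side. In other panels, such as Lamc3 and Itgb3bp, the slopes differ between pools. For Sdc3 pool 2 lies above the other pools in both depots.

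Each pool was also set against the median of its own array. All 6 pools were above their array's median in 29 of 53 probe sets and none in 5 (Cdh18, Cldn4, Itgam, Itgb4 and Pcdhb15). In 8 probe sets, those of Pcdh20, Cdh9, Itgb7, Cldn3 and Pcdhb22, 1 of Pcdh9 and both of Cldn10, the subcutaneous pools were all above and the perigonadal pools all below. Itgb8 was the only one with the reverse.

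Leaving out the pools of 1 number changed many calls, over all probe sets as well as among the members. Without pool pair 1 the calls over all probe sets went from 952 higher and 1286 lower to 529 and 660, and those of the members to 5 and 17. The 19 calls lost were those of Efna5, Ephb2, Gpc6, Gpcpd1, Lamb1, Lamb3, Nrcam, Ntn1, Ntn4, Pcdh12, Pcdh18, Pcdhb22, Robo1, Sdc3, Sdc4 and Sema5a, of both Sema6b probe sets and of 1 of Pcdh9. Without pool pair 2 the calls lost numbered 12. They were those of Cldn12, Efna5, Gpc6, Gpcpd1, Lamb1, Lamb3, Pcdh18, Pcdhb22, Robo1 and Sdc3 and of both Sema6b probe sets. Without pool pair 3 the calls of Pcdh12 and Sdc3 were lost. The 20 probe sets called under each of the 7 limma alternatives that hold all 53 members were those of Pcdh20, Cdh9, Cldn3, Dchs2, Epha3, Gpc3, Itga2, Itga5, Itga11, Itgb7, Itgb8, Plxna1, Sema3a, Sema3b, Sema3c, Sema3e and Slit2, both of Cldn10 and 1 of Pcdh9.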

How the data were processed

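Total RNA of sorted adipose stromal cells was labelled with biotin and hybridised to 6 Affymetrix arrays, 3 pools per depot. The deposited table of the authors gives a normalized, linear intensity for each probe set in each pool. Partek is the tool in the submitters' processing notes, and how it corrected and normalized the arrays is not given in the sources used here. That the intensities are linear was worked out from the values, whose log2 averages to the log2 means in the authors' comparison table. Per the file headers, that table also holds the log2 difference, the ratio, a signed fold as a score, and, from a paired t-test, the t score and its p-value before adjustment. Intensities exist for 3541 of its rows.

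Gene symbols are those of this table. All 53 members kept their symbol in RefSeq GRCm38.p6 (52 found by accession, 1 by symbol). Differences were fitted with limma 3.58.1 in R 4.3.3 on log2(intensity + 1) over 23531 probe sets with no filter, with pool number as a block (2 residual degrees of freedom, prior 5.24), Benjamini-Hochberg adjustment and a threshold of 0.05. A paired t-test of same-numbered pools came within 10% of the authors' p-value in 3435 of 3541 rows, against at most 335 under any other pairing. After subtraction of the depot means, pools with the same number correlated at 0.17, 0.16 and 0.053 across probe sets. The fit was also run on simulated data, whose noise had no part shared by same-numbered pools. That run therefore could not test the block, and nothing is read from it. Pool values are printed for members with a difference of at least 1 and for the largest of each family. For a partner or marker gene with several probe sets the brightest was used. The members, lists and tests were chosen with earlier results of these data known. The number of arrays limits the precision. One marker gene is not reported here.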

Additional observations from a re-analysis of the deposited data

How the results depend on the processing

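The contrast that chose the members also fixes the direction of their differences in these data, with 3 of 3 pool pairs alike in all 53, so that no alternative turned one that it held is no sign of stability. Of the 41 calls, 20 held under the 7 limma alternatives that hold all 53 members. The filter on dim probe sets left 43 members in the fit and took 4 calls out with the rest. These were the calls of Lamb3, Pcdh12 and Sdc3 and 1 of Pcdh9. With a pseudocount of 16 the members called at least 2-fold different numbered 5, as a larger pseudocount shrinks the differences of dim probe sets, and those called higher numbered 9, for which the cause was not tested. By the methods' t-test 0 members were called higher, 0 lower and 0 at least 2-fold different after Benjamini-Hochberg adjustment, where it called 1 of all 23531 probe sets. At an unadjusted p below 0.05 that test holds 52 of 53 members and limma 47, which restates how they were selected. Leaving out the pools of 1 number gave 5 to 13 members higher, 17 to 26 lower and 11 to 12 at least 2-fold different. With no replicate block, which ignores the pairing of pools, 10 were called higher and 26 lower, and the calls lost were those of Ephb2, Pcdh12, Sdc3 and both Sema6b probe sets. Over all probe sets, quantile normalization between arrays moved the calls from 952 higher and 1286 lower to 967 and 980, and among the members it gave 15 and 25. There are 3 pools per depot, and probe sets such as Cdh18, Itgam and Cldn4 lie below the array medians, so low signal limits what can be said of them. The same limit holds for the 4 calls that the filter on dim probe sets took out.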
